A study of Arabidopsis thaliana with 2 samples.

Results

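The genes described here are 38 Arabidopsis thaliana genes for sucrose breakdown, glycolysis and ethanol fermentation, chosen by gene identifier as named isoforms of 15 enzyme steps. All 38 were found among the 33557 genes of the deposited table. RNA was measured in 2 libraries of semi-in-vivo pollen tubes, whose pollen germinates on a cut pistil and whose tubes emerge from the style on a solid medium. The WT library is from wild type, the drop library carries the genotype label drop1- drop2-, and each is 1 Smart-seq2 library of polyadenylated RNA from tubes of 2 pooled stigmas. In both, tubes were cut once 300 to 400 µm had emerged, and the medium held sucrose as its sugar. Both are also recorded with 500 to 600 grains per stigma and 36 hours after emasculation. Both samples' protocol text mentions double mutant grains, and genotypes were therefore read from the genotype labels. The names table used here gives 0 genes named DROP1 or DROP2, and their own transcripts could not be looked up. With 1 library per genotype there is no replicate error and no test between genotypes, and "higher" and "lower" compare these libraries only.

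Sucrose enters metabolism through sucrose synthase, which gives UDP-glucose and fructose, or through invertase, which gives glucose and fructose. Glycolysis then primes hexoses with phosphate, splits them with aldolase and oxidises the trioses with glyceraldehyde-3-phosphate dehydrogenase, ending in pyruvate. Pyruvate decarboxylase and alcohol dehydrogenase turn pyruvate into ethanol, a route that is known to be active in pollen of tobacco. UDP-glucose is also the sugar donor for the cellulose and callose of the tube wall.

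Expression is in FPKM, a fragment count corrected for transcript length and library size, so levels of different genes can be set side by side. The table's FPKM sum to 1299600 in WT and 3668030 in drop, and for this reason each comparison was also made under 4 other scalings of the libraries. The first set both sums to the same value (equal sums), and another did so after leaving out organelle genes and the 50 highest genes (trimmed sums). A further scaling brought the median ratio to 1 among genes that reach 10 FPKM in each library, and the last was quantile normalization. Summed levels were compared only as deposited and at equal sums. Ratios are log2((drop FPKM + 1)/(WT FPKM + 1)), where the added 1 pulls the ratio of weakly expressed genes towards 0. The smallest steps of the values make 1 fragment worth 0.136 FPKM kb in the WT library and 0.246 in the drop library, and the fragment numbers given below are estimates from these steps. As a check of the tissue, 10 of 10 pollen tube markers reached 1 FPKM in both libraries, with sums of 9712 FPKM in WT and 31761 in drop. Of 10 sperm markers, 8 reached 1 FPKM in WT and 6 in drop, and their sum was 49025 FPKM in WT and 3363 in drop, with DAZ1 listed at 0 in drop. The 9 green tissue markers summed to 140 FPKM in WT and 18.7 in drop, with LHB1B1 at 0 in both libraries and CAB2 at 0 in drop. The 7 style and carpel markers summed to 46.9 and 56.9 FPKM, with CRC at 0 in both, STK at 0 in WT and NTT at 0 in drop. As shares of each library's sum, the pollen tube markers held 0.747% in WT and 0.866% in drop. Sperm markers held 3.77% and 0.0917%, and green tissue markers 0.0107% and 0.00051%. Style and carpel markers held 0.00361% and 0.00155%, so as a share they were lower in drop. The part of these other cell types in the differences below was not tested, and fewer cells of a type cannot be told apart from less RNA per cell.

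Sugar-breakdown transcripts were of modest level in both libraries, and most of their RNA came from 3 consecutive enzymes in the middle of glycolysis. Of the 38 genes, 17 stood below 1 FPKM in both libraries and 5 of these were listed at 0 in both. In WT 17 genes reached 1 FPKM and in drop 18, while 3 genes reached 10 FPKM in each library. Over the genes above 0, the median was 1.21 FPKM in WT and 1.37 in drop, against 1.44 and 1.40 over all genes above 0. Together the 38 genes held 183 FPKM in WT and 93.8 in drop, which is 0.0141% and 0.00256% of each library's sum. Drop thus held 0.513 times the WT level as deposited and 0.182 times at equal sums.

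**Figure D1:**
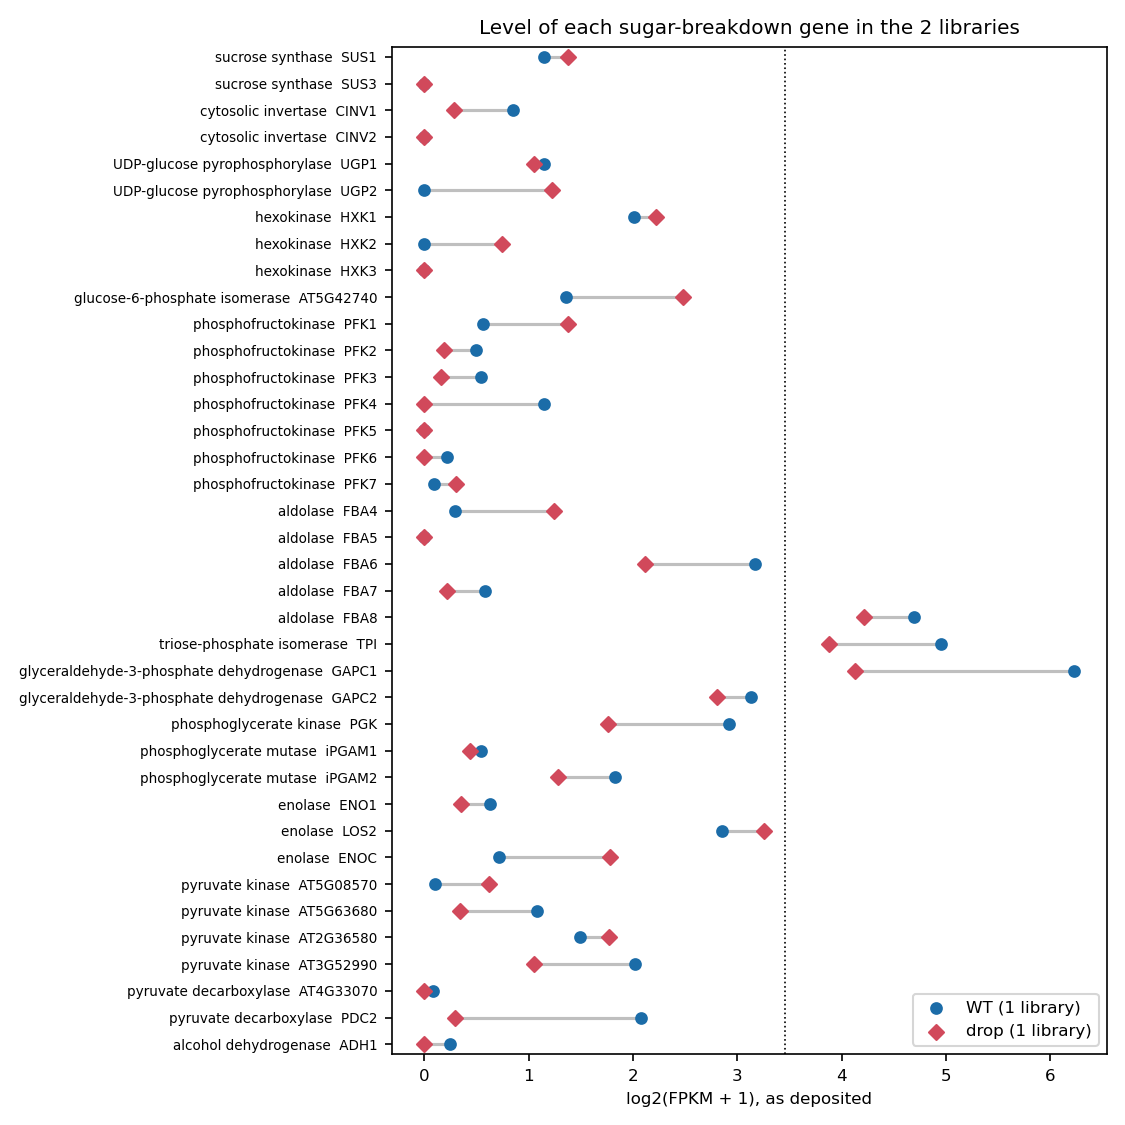
Level of each of the 38 genes as log2(FPKM + 1), ordered by enzyme step, with circles for the WT library and diamonds for the drop library. The dotted line marks 10 FPKM, which only FBA8, TPI and GAPC1 pass, and a lone diamond at 0 covers a WT circle at 0.

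GAPC1 (AT3G04120), a cytosolic glyceraldehyde-3-phosphate dehydrogenase, was the most abundant of these genes in WT at 74.2 FPKM and stood at 16.5 in drop. TPI (AT3G55440), the cytosolic triose-phosphate isomerase, was at 30.1 FPKM in WT and at 13.7 in drop. FBA8 (AT3G52930), a cytosolic aldolase, was at 24.9 FPKM in WT and at 17.5 in drop. All 3 were lower in drop, by very different amounts, so the order of the genes differed: GAPC1 led in WT and FBA8 in drop. The lead of FBA8 in drop was small, on about 146 fragments for FBA8 and 115 for GAPC1, so the order in drop is uncertain. GAPC1 was 4.51-fold lower as deposited and 12.7-fold lower at equal sums. TPI was 2.19-fold lower as deposited and 6.17-fold lower at equal sums, and FBA8 was 1.42-fold and 4.01-fold lower. By position in each library's own table, which no linear scaling changes, GAPC1 went from 771 in WT to 2125 in drop. TPI went from 1427 to 2334 and FBA8 from 1613 to 2063, with 15150 genes above 0 in WT and 12942 in drop. The sperm and green tissue marker sums given above were also lower in drop, and their part in these 3 differences was not tested.

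Genes were called higher or lower where the libraries lay at least 2-fold apart on the log2 scale and either of them reached 10 FPKM. Only these 3 of the 38 genes met the minimum. As deposited, 0 of the 3 were higher, where 45.4% of all 3633 genes tested were higher, and 2, TPI and GAPC1, were lower, where 27.9% of all genes were. At equal sums all 3 were lower, against 43.0% of all genes, and 0 were higher, against 8.64%. The median log2 ratio of the 3 was -1.07 as deposited beside 0.81 over all genes tested, and -2.35 beside -0.58 at equal sums. The value for GAPC1 ranged from -2.11 as deposited to -3.40 at equal sums, and that for TPI from -1.07 to -2.35. FBA8 was below 0 under each scaling but passed 2-fold only with equal sums, trimmed sums and the median-ratio scaling.

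GAPC1 and GAPC2 encode the same cytosolic enzyme and differed in how far apart the libraries were. GAPC2 (AT1G13440) was at 7.76 FPKM in WT and at 6.002 in drop, a log2 ratio of -0.32 that ran from -0.13 after quantile normalization to -1.40 at equal sums. GAPC1 was thus at 9.57 times the level of GAPC2 in WT and at 2.74 times in drop, a comparison within each library that no linear scaling alters. GAPC1 gave 90.5% of the pair's FPKM in WT and 73.3% in drop. The values rest on about 934 fragments for GAPC1 and 102 for GAPC2 in WT, and on about 115 and 44 in drop. Their coding sequences, each 1017 bases, are 89.9% identical, so short fragments from conserved stretches may have been divided between them. The longest run they share is 53 bases, from base 211 to 263 of both coding sequences, and spans an exon junction in each gene. It lies within chr3:1081844-1081990 on the plus strand for GAPC1 and chr1:4609757-4609900 on the minus strand for GAPC2 in RefSeq TAIR10.1, and is shown because fragments inside it cannot be assigned to either gene:
GAPC1 and GAPC2 shared coding run: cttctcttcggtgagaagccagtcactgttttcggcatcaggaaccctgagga

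The 120 bases before the annotated start of each gene are shown next, with those of TPI, to set the GAPC pair beside the other of the 38 genes called lower as deposited. They come from RefSeq TAIR10.1, at chr3:1080822-1080941 (plus strand) for GAPC1, chr1:4610879-4610998 (minus strand) for GAPC2 and chr3:20553283-20553402 (plus strand) for TPI. They are in lower case throughout because neither the G-box CACGTG nor the MEF2-type CArG box was found in them.
GAPC1: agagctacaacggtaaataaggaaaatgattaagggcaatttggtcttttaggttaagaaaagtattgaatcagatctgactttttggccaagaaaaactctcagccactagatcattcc
GAPC2: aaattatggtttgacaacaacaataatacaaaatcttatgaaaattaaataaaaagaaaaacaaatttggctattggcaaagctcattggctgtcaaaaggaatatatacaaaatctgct
TPI: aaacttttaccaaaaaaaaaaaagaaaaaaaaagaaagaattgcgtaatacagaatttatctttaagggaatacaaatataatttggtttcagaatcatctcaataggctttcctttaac

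Motifs were counted on both strands in the 250 bases before the start of each gene, beside the same window of 27443 protein-coding genes. The MEF2-type CArG box, bound by MADS-box factors of late pollen, was found for 0 of the 38 genes and for 2.15% of all genes. AGAAA, the pollen box first described in the tomato gene LAT52, was found for 33 of 38 and for 82.5% of all genes. GTGA was found for 31 of 38 and for 77.5% of all genes, so both short motifs were about as frequent here as in the genome. CACGTG was found for 5 of 38 genes, UGP1, ENOC, AT5G08570, PDC2 and ADH1, and for 6.49% of all genes. A GTGA can share its GTG with a CACGTG, and a match describes letters only.

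At the entry of sucrose, each of the 6 genes among the 38 was below 2 FPKM in both libraries. SUS1 (AT5G20830), a sucrose synthase, was at 1.21 FPKM in WT and at 1.60 in drop, and SUS3 was listed at 0 in both. CINV1 (AT1G35580), a cytosolic invertase, was at 0.805 FPKM in WT and at 0.221 in drop, the latter from about 2 fragments, and CINV2 was listed at 0 in both. Of the UDP-glucose pyrophosphorylases, UGP1 (AT3G03250) was at 1.21 and 1.07 FPKM. UGP2 (AT5G17310) was listed at 0 in WT and stood at 1.33 FPKM in drop, from about 11 fragments. The coding sequences of UGP1 and UGP2 are 86.5% identical with a shared run of 47 bases, so fragments can be shared between them. Neither SUS1 nor UGP1 kept its direction, since SUS1 turned from 0.23 as deposited to -0.43 at equal sums and UGP1 from -0.10 to 0.25 after quantile normalization.

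Hexose phosphorylation was led by HXK1 and the priming steps had low values. HXK1 (AT4G29130), a hexokinase that also acts as a glucose sensor in leaves, was at 3.04 FPKM in WT and at 3.65 in drop, and its log2 ratio turned from 0.20 as deposited to -0.74 at equal sums. HXK2 was listed at 0 in WT and at 0.673 FPKM in drop, and HXK3, a plastid form, was listed at 0 in both. AT5G42740, the cytosolic glucose-6-phosphate isomerase, was at 1.57 FPKM in WT and at 4.56 in drop, or 2.91-fold higher as deposited, with about 31 and 49 fragments. Its log2 ratio of 1.12 was 0.02 at equal sums, so the libraries differed little on that scale.

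The 7 phosphofructokinase genes, for the step that commits hexose phosphate to glycolysis, summed to 2.77 FPKM in WT and at 2.09 in drop. A different gene led in each library. PFK4 (AT5G61580), a plastid isoform, was at 1.21 FPKM in WT, from about 18 fragments, and listed at 0 in drop. PFK1 (AT4G29220) was at 0.480 FPKM in WT and at 1.59 in drop, from about 7 and 13 fragments. PFK1 held 76.2% of the step's FPKM in drop and PFK4 43.6% in WT, on few fragments in each case. PFK2, PFK3, PFK6 and PFK7 stayed below 0.5 FPKM in both libraries and PFK5 was listed at 0 in both.

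Among the cytosolic aldolases, FBA8 gave 74.1% of the step's FPKM in WT and 78.3% in drop. FBA6 (AT2G36460) followed at 7.99 FPKM in WT and at 3.32 in drop, or 2.40-fold lower as deposited. FBA4 (AT5G03690) was at 0.224 FPKM in WT and at 1.37 in drop, a log2 ratio of 0.95 that was 0.23 at equal sums, from about 3 and 11 fragments. FBA7 was below 0.5 FPKM in both libraries and FBA5 was listed at 0 in both.

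After the oxidation step, PGK (AT1G79550), the cytosolic phosphoglycerate kinase, was at 6.57 FPKM in WT and at 2.40 in drop, or 2.74-fold lower as deposited. iPGAM2 (AT3G08590), a phosphoglycerate mutase, was at 2.55 and 1.43 FPKM, and its partner iPGAM1 at 0.456 and 0.359. Both PGK and iPGAM2 had log2 ratios below 0 under each scaling, from -0.86 to -1.87 for PGK and from -0.17 to -1.10 for iPGAM2. PGK rests on about 84 fragments in WT and 17 in drop.

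Enolase did not share that direction as deposited. LOS2 (AT2G36530), the main cytosolic enolase, was at 6.25 FPKM in WT and at 8.56 in drop, and ENOC (AT2G29560) at 0.647 and 2.43. The log2 ratio of LOS2 was 0.40 as deposited and -0.80 at equal sums. That of ENOC stayed above 0 under each scaling, from 0.15 at equal sums to 1.37 after quantile normalization. ENOC rests on only about 9 fragments in WT and 20 in drop. ENO1, the plastid enolase, was at 0.542 and 0.278 FPKM.

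Pyruvate kinase, which makes pyruvate and ATP, had a different leading gene in each library. AT3G52990 was at 3.05 FPKM in WT and at 1.07 in drop, and AT2G36580 at 1.81 and 2.41, with log2 ratios of 0.28 as deposited and -0.53 at equal sums for the latter. The coding sequences of these 2 genes are 88.8% identical with a shared run of 56 bases, so fragments can be shared between them. AT5G63680 was at 1.12 and 0.266 FPKM, and AT5G08570 at 0.0757 and 0.538. Of the pyruvate kinases, AT3G52990 and AT5G63680 were below 0 under each scaling, but the drop values rest on about 10 and 2 fragments.

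Of the fermentation genes, PDC2 was the only one of the 3 to reach 1 FPKM, and it did so in WT. PDC2 (AT5G54960), a pyruvate decarboxylase, was at 3.23 FPKM in WT, from about 54 fragments, and at 0.226 in drop, from about 2. Its log2 ratio of -1.79 lay between -1.50 and -1.94 under the other scalings. PDC1 (AT4G33070) had 0.0606 FPKM in WT and was listed at 0 in drop. ADH1 (AT1G77120), the alcohol dehydrogenase of the low-oxygen response, was at 0.189 FPKM in WT, from about 2 fragments, and at 0 in drop. At this depth a difference in PDC1 or ADH1 was not detectable. The promoters of PDC2 and ADH1 are shown because both hold the G-box, a motif studied in the ADH1 promoter, here in capitals. They are at chr5:22312833-22312952 (minus strand) and chr1:28975135-28975254 (plus strand) in RefSeq TAIR10.1. PDC2 holds a further G-box farther upstream within the window of 250 bases. UGP1, ENOC and AT5G08570 hold the motif too, and ENOC and AT5G08570 had log2 ratios above 0 under each scaling, on few fragments.
PDC2: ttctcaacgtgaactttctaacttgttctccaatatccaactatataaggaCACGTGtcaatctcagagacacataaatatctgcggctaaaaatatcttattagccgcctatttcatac
ADH1: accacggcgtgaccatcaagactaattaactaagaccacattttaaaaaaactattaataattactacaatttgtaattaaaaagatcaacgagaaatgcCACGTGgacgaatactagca

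A minimum of 1 FPKM in either library left 21 of the 38 genes, and their directions were mixed. As deposited 3 passed 2-fold upwards (UGP2, AT5G42740 and ENOC), against 26.4% of 9880 genes, and 6 passed it downwards (PFK4, FBA6, TPI, GAPC1, PGK and PDC2), against 30.4%. At equal sums 0 were higher, against 3.99%, and 9 lower, against 42.8%. The log2 ratio was below 0 under each of the 5 scalings for 11 of the 21, where this held for 46.2% of the 9880 genes. It was above 0 under each for 5 (UGP2, AT5G42740, PFK1, FBA4 and ENOC), where this held for 23.5%. Both counts are near the share over all genes. UGP2, PFK1, FBA4 and ENOC met the minimum only in drop, and PFK4, AT5G63680 and PDC2 only in WT. For such genes the minimum itself favours the direction seen, and it acts in the same way on the share over all genes. The median log2 ratio of the 21 genes was -0.32 beside -0.07 for all 9880 genes as deposited, and -0.80 beside -0.85 at equal sums.

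**Figure D2:**
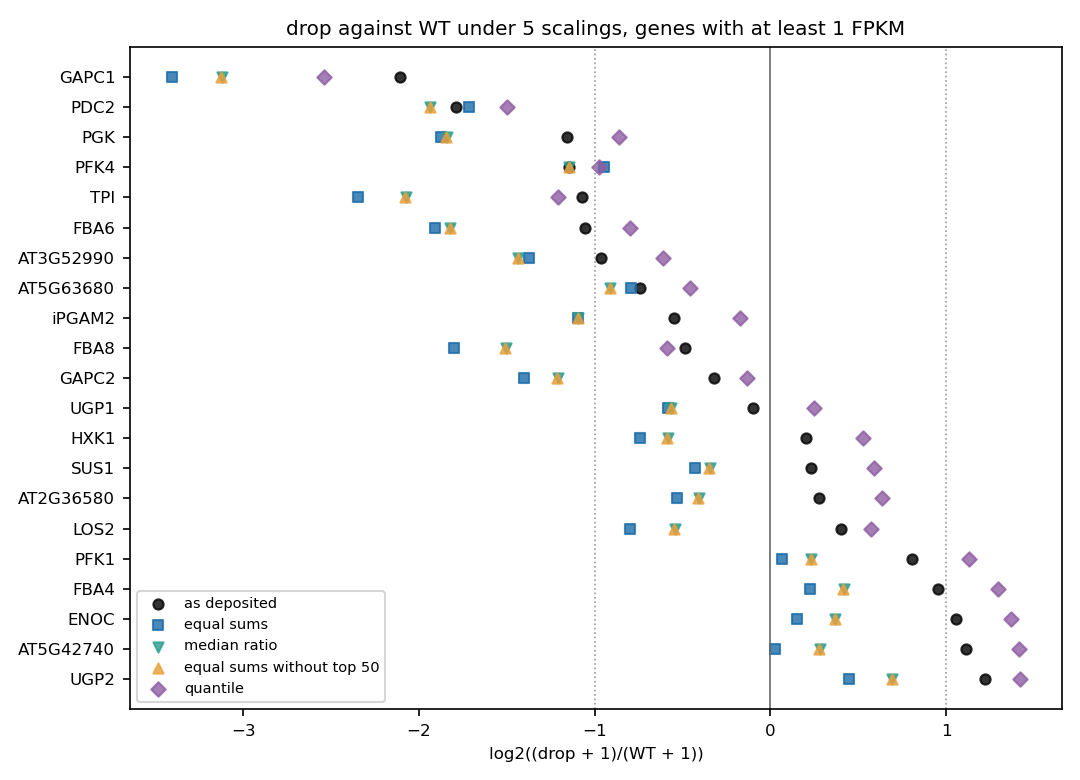
Log2 ratio of drop to WT for the 21 genes that reach 1 FPKM in either library, with 1 symbol per scaling, a solid line at 0 and dotted lines at 2-fold. GAPC1 lies farthest to the left, 11 genes keep all symbols below 0, and UGP2, AT5G42740, PFK1, FBA4 and ENOC keep all above 0.

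The make-up of the pathway's RNA, which does not depend on a linear scaling, differed between the libraries. Glyceraldehyde-3-phosphate dehydrogenase held 44.8% of the 38 genes' FPKM in WT and 23.97% in drop. Aldolase held 18.4% and 23.9%, triose-phosphate isomerase 16.4% and 14.7%, and enolase 4.07% and 12.01%. Over FBA8, TPI and GAPC1 alone, the genes that reach 10 FPKM, triose-phosphate isomerase held 23.3% in WT and 28.8% in drop, so the order of its shares turned. The 17 genes from sucrose breakdown to phosphofructokinase held 5.81% in WT and 16.2% in drop, and their summed level was 10.6 and 15.2 FPKM, which in drop is 1.43 times the WT level as deposited but 0.507 times at equal sums. The 18 genes from aldolase to pyruvate kinase held 92.3% and 83.6%, with 169 and 78.4 FPKM. The 3 fermentation genes held 1.90% and 0.240%. Shares add up to a whole, so the lower share of GAPC1 in drop raises the others. Without GAPC1 the summed level in drop was 0.712 times that in WT as deposited, beside 0.513 times with it. The sum without GAPC1 was not compared at equal sums, where all 38 genes gave 0.182 times the WT level.

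**Figure D3:**
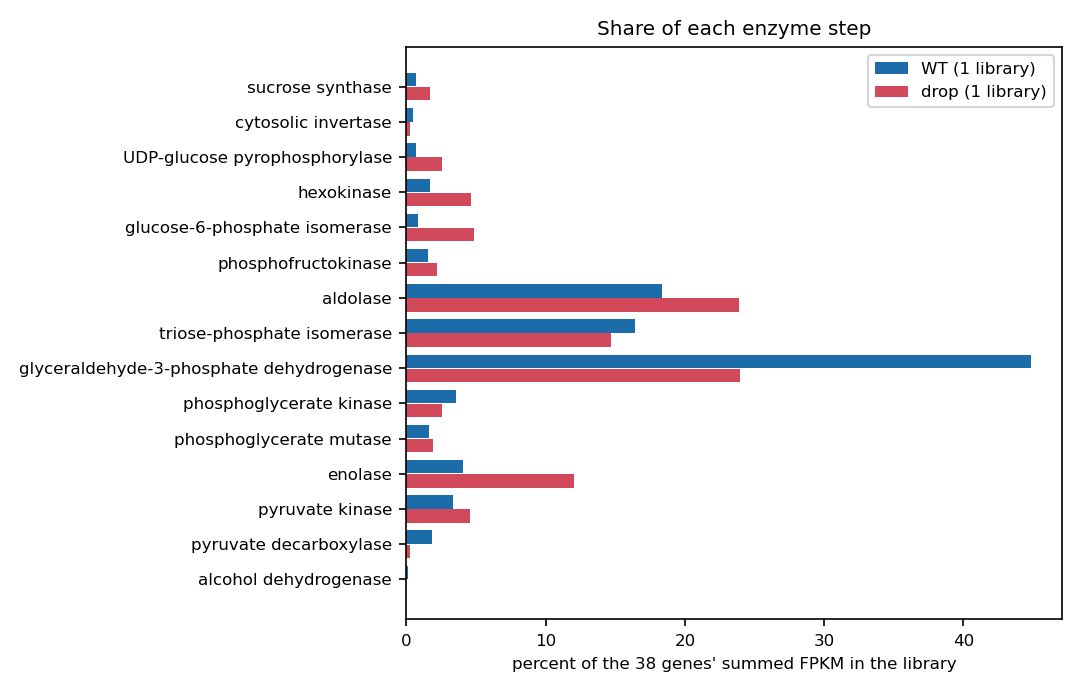
Percent of the 38 genes' summed FPKM held by each of the 15 enzyme steps, with bars for the WT library and the drop library. Glyceraldehyde-3-phosphate dehydrogenase has the longest bar in WT at 44.8%, and in drop it is level with aldolase at 23.97% and 23.9%.

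The surrounding carbon metabolism was read from 100 further genes in 12 lists. Of these, 53 reached 1 FPKM and 9 reached 10 FPKM in at least 1 library. Among the 9, the deposited values put 5 past 2-fold upwards in drop and 2 downwards, and equal sums put 0 and 2 there. The shares of all genes are those given above for the same minimum, 45.4% higher and 27.9% lower as deposited and 8.64% and 43.0% at equal sums, so nothing particular to the 9 is read from these counts. The vacuolar invertase ATBETAFRUCT4 (AT1G12240) was at 18.6 FPKM in WT and at 98.7 in drop, above every one of the 38 genes in drop. Its log2 ratio was 2.35 as deposited and 0.87 at equal sums. The cell wall invertase CWINV2 (AT3G52600) was at 34.9 FPKM in WT and at 11.8 in drop, with log2 ratios of -1.48 and -2.72. The more abundant sucrose-splitting transcripts were thus those of acid invertases, not of sucrose synthase or cytosolic invertase.

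At the exit of glycolysis, the pyruvate dehydrogenase subunit gene IAR4 (AT1G24180) was at 32.3 FPKM in WT and at 13.99 in drop, lower under each scaling. ACS (AT5G36880), an acetyl-CoA synthetase, was at 3.23 and 14.2 FPKM, higher under each scaling, with log2 ratios of 1.85 as deposited and 0.48 at equal sums. The phosphoenolpyruvate carboxylase PPC4 was at 4.64 and 11.2 FPKM, the citrate synthase ATCS at 7.51 and 20.8, and the succinate dehydrogenase SDH1-1 at 12.6 and 30.1. These 3 passed 2-fold as deposited and were at -0.17, -0.02 and -0.21 at equal sums. The tricarboxylic acid cycle list summed to 79.1 FPKM in WT and at 116 in drop, which in drop is 1.47 times the WT sum as deposited and 0.520 times at equal sums. None of the plastid glycolysis genes, fructokinases, phosphoglucomutases or pyrophosphate-dependent phosphofructokinases reached 10 FPKM in either library.

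**Figure D4:**
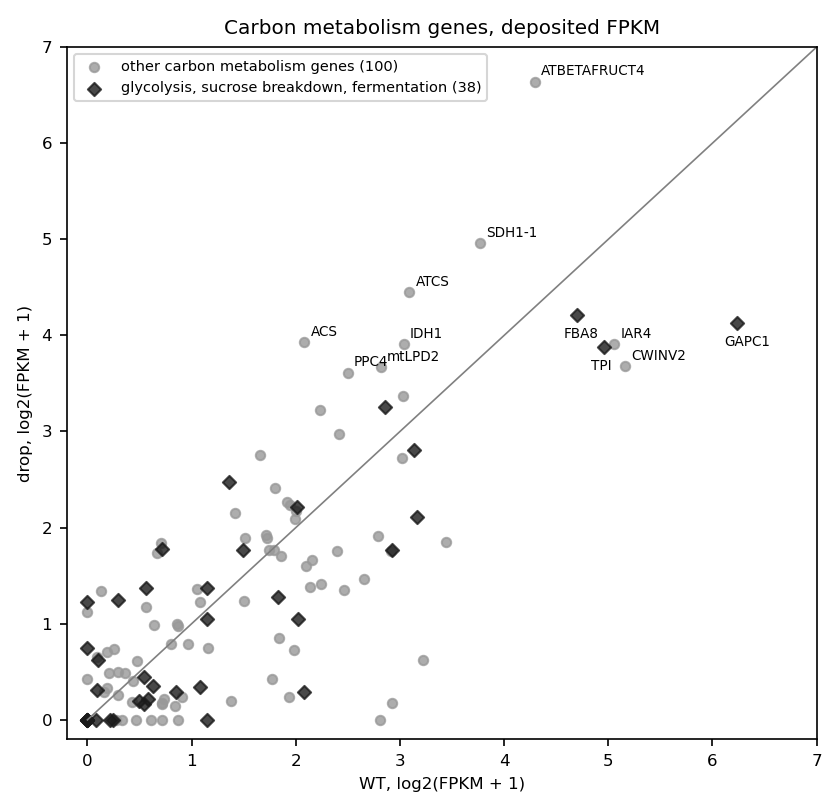
Deposited levels of the 38 genes (diamonds) and 100 other carbon metabolism genes (circles) as log2(FPKM + 1), WT on the horizontal and drop on the vertical axis, with the line of equal values. Genes that reach 10 FPKM in either library are named, and GAPC1 lies farthest below the line among the diamonds while ATBETAFRUCT4 lies highest in drop.

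Depth limits most of these values. Estimated fragments were fewer than 20 in WT for 24 of the 38 genes and in drop for 27, and at least 20 in both libraries for 10. HXK1, PFK1, PGK, ENOC and ADH1 are among the genes that overlap a gene on the other strand in TAIR10.1, and FBA5 and FBA7 overlap each other. No source used here says whether counting used strand.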

How the data were processed

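The authors deposited a table of FPKM values whose headers name a WT column and a drop column. The submitters' processing notes name Cufflinks 2.2.1, TopHat2 2.0.14 and the genome build TAIR10. Their settings and the annotation release: not given in the sources used here. From the FPKM were computed log2 ratios with a pseudocount of 1, counts at 2-fold with a minimum of 10 FPKM, sums, shares and ranks, with pandas 2.3.3 and numpy 2.4.6. No test across samples was possible with 1 library per genotype. The scaling and counting steps were tested on simulated data with 200 changed genes. The simulated columns held no noise, and full recovery was required only of the median-ratio scaling.

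Fragments were estimated as FPKM times the longest annotated transcript length, divided by the lowest peak of FPKM times length over genes with a lone transcript of 3 kb or more (37 genes for WT, 72 for drop). Cufflinks can correct lengths and divide fragments, and PCR copies were not marked, so they are approximate. Symbols, sequences and coordinates are from RefSeq TAIR10.1, which matched 38 of the 38 identifiers; the deposited table itself holds no coordinates. Any of the 38 genes could be named, and other pathway genes if at least 2-fold apart with at least 10 FPKM, or among the 3 highest of their list. Protein sequences were not used here. The genes, lists and markers were chosen with earlier results of these data known.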

Additional observations from a re-analysis of the deposited data

How the results depend on the processing

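No paired analysis was possible because there is 1 library per genotype. The count of genes called higher was 0 in the deposited values, under the 4 other scalings, both other pseudocounts and the 4-fold rule, and 3 with a minimum of 1 FPKM or none. The number lower was 2 as deposited, 1 with a pseudocount of 10, 1 at 4-fold, and 6 with a minimum of 1 FPKM or none, where more genes enter. The median log2 ratio of -1.07 was -2.35 with equal sums, -2.07 with the median-ratio scaling and -2.08 with trimmed sums, as the scaling itself sets. It was -0.32 with FPKM of at least 1, -0.099 with no filter, and -0.32 with a mean FPKM of at least 1, a setting chosen after seeing the data. The summed level in drop was 0.513 times that in WT as deposited and 0.182 times at equal sums. GAPC1 and TPI kept their direction under every scaling and pseudocount tried, and TPI was at -0.75, under 2-fold, with a pseudocount of 10. With the 3 genes of at least 10 FPKM alone, the share of triose-phosphate isomerase was 23.3% in WT and 28.8% in drop, and that of aldolase in drop was 36.7%, since fewer genes are summed. Isoform shares within a step could not be recomputed in that way, because each of these steps then holds 1 gene.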
